A study of Mus musculus with 12 samples.

Results

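Chemokine and chemoattractant receptors are the cell-surface receptors through which microglia sense where to move. The set described here was chosen by name: 9 receptors were listed, and the 8 with a row in the raw count table were Cx3cr1, Ccr2, Ccr6, Cxcr3, Cxcr4, Ccrl2, Gpr183 and Cmklr1, out of 545 endogenous genes on the panel. Ccr1, the ninth, was not analysed here. Counts came from microglia of the hippocampus of male Balbc mice at postnatal day 28, isolated with a Percoll gradient and fluorescence-activated sorting and read on a NanoString immune panel, where a barcode is counted per captured transcript. The 6 BDS samples came from pups given brief daily separation, which took them from the mother for 15 min a day over postnatal days 1 to 21. The 6 others are labelled control; the group was taken from each sample's title, since the separation text stands on all 12 labels and how controls were reared is not described. All 12 samples came from different litters per the design text. No transgene or drug is named, nor the antibodies used for sorting, nor whether pups were pooled.

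Most of these receptors weave through the membrane many times and couple to inhibitory G proteins, which lower cyclic AMP and turn the actin skeleton toward the source of the ligand. Cx3cr1 binds fractalkine, which neurons display, and it marks microglia in the healthy brain. Ccr2 brings monocytes from blood to inflamed tissue, and Ccr6, Cxcr3 and Cxcr4 are best known from lymphocytes and progenitor cells. Gpr183 follows oxysterol gradients, Cmklr1 binds the protein chemerin, and Ccrl2 binds chemerin without signalling and can present it to Cmklr1.

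The 3 receptors with the smallest p-values in the group comparison below were Ccr6, Gpr183 and Cmklr1, and their promoters are printed here because all 3 had lower mean counts in the separated pups. Each line gives the 250 bases before a RefSeq start in GRCm38.p6, read along the gene, with matches to GAGGAA on either strand in capitals. These letters are the core bound by PU.1, the transcription factor on which microglia depend. The Ccr6 stretch is at chr17:8235793-8236042 on the plus strand, that of Gpr183 at chr14:121965194-121965443 on the minus strand, and that of Cmklr1 at chr5:113643604-113643853 on the minus strand.
Ccr6: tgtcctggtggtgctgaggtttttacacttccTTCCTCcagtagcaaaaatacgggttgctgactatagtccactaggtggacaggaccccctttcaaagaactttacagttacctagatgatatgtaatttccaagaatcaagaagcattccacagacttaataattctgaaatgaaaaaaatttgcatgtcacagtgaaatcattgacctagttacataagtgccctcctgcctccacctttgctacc
Gpr183: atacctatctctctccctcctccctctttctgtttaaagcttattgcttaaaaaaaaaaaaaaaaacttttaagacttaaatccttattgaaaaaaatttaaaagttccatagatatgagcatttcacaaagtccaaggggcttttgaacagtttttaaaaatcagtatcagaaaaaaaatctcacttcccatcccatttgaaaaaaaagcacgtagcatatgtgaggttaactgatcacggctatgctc
Cmklr1: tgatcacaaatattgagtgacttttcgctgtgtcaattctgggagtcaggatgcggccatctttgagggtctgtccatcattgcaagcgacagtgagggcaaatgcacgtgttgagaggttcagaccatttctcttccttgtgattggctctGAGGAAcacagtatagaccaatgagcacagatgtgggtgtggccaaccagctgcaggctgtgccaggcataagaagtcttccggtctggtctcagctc
The Ccr6 and Cmklr1 stretches printed held 1 match each and the Gpr183 stretch held 0. Ccr6 has a further start in the table, whose stretch at chr17:8242276-8242525 held 0. All 8 receptors matched the promoter table, which lists 11 starts for them, and 3 of the 11 stretches held the letters, the other one being that of Cxcr3. Over the whole table, 23.3% of 32851 stretches of the same length held them. A match describes letters only.

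Total counts over the endogenous genes were 827591 to 1341132 in controls and 577135 to 1103445 in BDS. Counts were divided by a scaling factor from 6 housekeeping genes, and the result is called a normalized count. The geometric mean count of those genes was 1252 ± 246 (SD, n = 6) in controls and, in BDS, 1004 ± 289 (SD, n = 6; two-sided exact permutation test, p = 0.139, adjusted p = 0.139 over 3 measures). BDS 21, BDS 25 and BDS 55 had the lowest values, at 665, 709 and 933, and control 5 was next at 956. In BDS 21, BDS 25 and BDS 55 the count of Rpl19 over that of Polr2a, both housekeeping genes, was 0.47 to 0.79, against 0.11 to 0.27 in the other 9. This pair, out of 14 housekeeping genes, was not among the planned measures. Background was set in each sample at the negative-control mean with 2 SD added. Genes above it numbered 361 ± 18 and 324 ± 20 (SD, n = 6; exact permutation test, two-sided, p = 0.00866, adjusted p = 0.026). Of 17 listed microglial markers 10 were on the panel, and all 10 were above background in all 12 samples, Csf1r, the receptor that keeps microglia alive, and Itgam, an integrin chain, highest. Their summed normalized counts were 231115 to 246964 in controls and 220081 to 287376 in BDS.

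The receptors formed an abundant and a scarce set. Averaged over the 12 samples, normalized counts ran in the order Ccr6, Cx3cr1, Gpr183, Cmklr1, Ccr2, Ccrl2, Cxcr4 and Cxcr3. The first 5 and Ccrl2 kept their order in 12 of 12 samples. Ccrl2 and Cxcr4 did not differ beyond their spread, Ccrl2 being the higher of the pair in 5 of 12 samples, and Cxcr4 was above Cxcr3 in 11 of 12. These are counts of different probes after PCR, so the order describes readouts and not transcript numbers per cell. In bulk samples, fewer cells of a type and less RNA per cell cannot be told apart.

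The main comparison asked how these receptors differed between separated and control pups. Of the 8, 7 were above background in at least 40% of samples and entered the test, Cxcr3 did not, and 0 of the 7 passed an adjusted p of 0.05 (edgeR quasi-likelihood test over 357 genes; 0% of all genes passed). At an unadjusted p under 0.05, Ccr6, Gpr183, Cmklr1 and Ccr2 were lower in BDS, 4 of 7 receptors, where 11.5% of all tested genes were lower and 0.84% higher. At the adjusted threshold DESeq2 and limma also called 0, and limma-voom with sample quality weights called 2, Ccr6 (adjusted p = 0.041) and Cmklr1 (adjusted p = 0.0458), where it called 4.48% of all genes. The receptors had been picked with earlier results known, so the share of 4 in 7 is a description. Their median log2 fold change was -0.21, beside -0.10 over all tested genes, and 5 of the 7 lay below 0, as did 66.1% of all. With TMM, a scaling that centres on the tested genes themselves, the same 5 stayed below 0 but 0 of the 7 were at an unadjusted p under 0.05. On the whole panel 14 genes (3.92%) were then lower and 18 higher, where 41 and 3 were before, and the median was -0.0093. Relative to the panel median, which another scaling cannot move much since it shifts all genes nearly alike, the value was -0.18 for Cmklr1, -0.11 for Ccr6, -0.14 for Gpr183 and -0.26 for Ccr2. Without BDS 21, BDS 25 and BDS 55 these were -0.03, -0.02, -0.24 and -0.07.

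**Figure D1:**
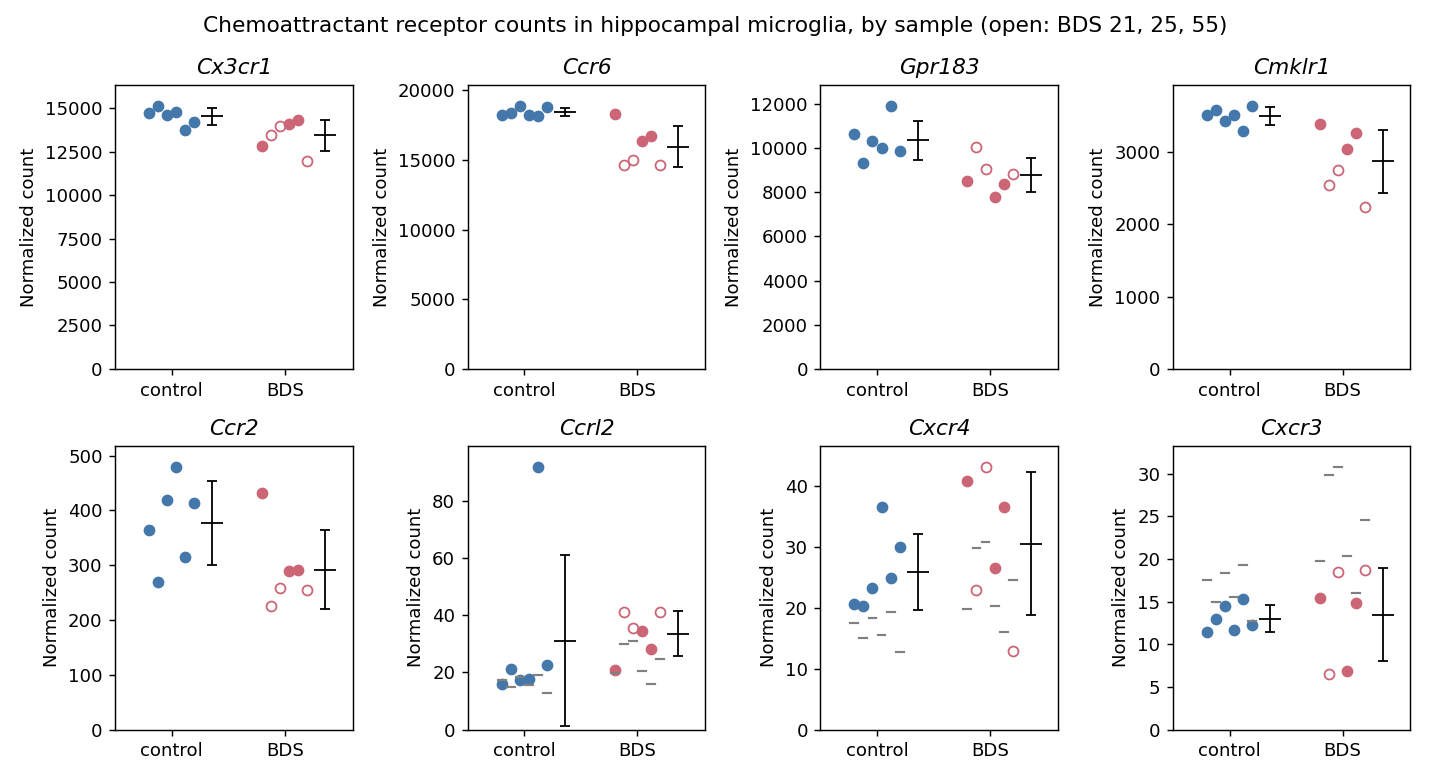
Normalized counts (y axis, from 0) of the 8 receptors in 6 control and 6 BDS samples; each point is 1 sample, bars are mean ± SD, open points are BDS 21, BDS 25 and BDS 55, and grey dashes in the 3 scarce receptors mark the background threshold of each sample. For Ccr6, Gpr183 and Cmklr1, 5 BDS points lie below every control, and the points of Cxcr3 all lie under their thresholds.

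Cx3cr1, the fractalkine receptor, had normalized counts of 13721 at the lowest, 14670 at the median and 15127 at the highest in controls. In BDS these were 11988, 13709 and 14337. All 6 BDS samples lay below the control mean and 3 lay below every control, so the groups overlapped. The means were 14525 ± 496 and 13436 ± 895 (SD, n = 6), a log2 fold change of -0.11 ± 0.06 (SE, 95% interval -0.25 to 0.03; edgeR, adjusted p = 0.43). This difference was close to the panel median, and it was -0.02 with TMM.

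Ccr6, the receptor of the chemokine Ccl20, gave the highest counts of the set. Its controls lay close together, at 18170, 18314 and 18880 (lowest, median, highest), and BDS samples at 14617, 15702 and 18320. In all, 5 BDS samples were below every control, and BDS 7 alone was within the control range. The means were 18457 ± 309 and 15955 ± 1470 (SD, n = 6), so the standard deviation was 1.67% of the mean in controls and 9.21% in BDS. The log2 fold change was -0.21 ± 0.07 (SE, 95% interval -0.36 to -0.06; edgeR, adjusted p = 0.25), and -0.12 with TMM. Ccr6 is best known from lymphocytes, whose markers were partly detected. Of 16 T cell markers on the panel 6 were above background in 0 of 12 samples, Cd3d and Cd3e among them, and 7 were tested. Of 11 B cell markers 4 were above background in 0 of 12 samples, Pax5 among them, and 5 were tested.

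Gpr183, the oxysterol receptor, had controls at 9337, 10163 and 11898 normalized counts (lowest, median, highest) and BDS samples at 7795, 8651 and 10060. All 6 BDS samples lay below the control median, and 5 below every control. Control 44 was the highest sample and BDS 21 the only BDS sample inside the control range. The means were 10345 ± 879 and 8760 ± 764 (SD, n = 6), a log2 fold change of -0.24 ± 0.08 (SE, 95% interval -0.41 to -0.07; edgeR, adjusted p = 0.25), and -0.14 with TMM.

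Cmklr1, the signalling receptor for chemerin, had controls at 3301, 3519 and 3641 normalized counts and BDS samples at 2239, 2898 and 3394. BDS 7 was the only BDS sample above the lowest control, and 5 lay below every control. The means were 3499 ± 121 and 2873 ± 441 (SD, n = 6), and the standard deviation was 3.47% of the mean in controls and 15.3% in BDS. The log2 fold change was -0.28 ± 0.10 (SE, 95% interval -0.49 to -0.08; edgeR, adjusted p = 0.25), and -0.19 with TMM. Over the 7 receptors tested, 0 had groups that did not overlap, against 1.12% of all tested genes.

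Ccr2, the monocyte receptor, was scarcer and more spread. Controls lay at 269, 388 and 479.7 normalized counts and BDS samples at 225, 274 and 431. The groups overlapped, with 3 BDS samples below every control and BDS 7 above the control mean. The means were 377 ± 76 and 292 ± 73 (SD, n = 6), a log2 fold change of -0.36 ± 0.17 (SE, 95% interval -0.73 to -0.0019; edgeR, unadjusted p = 0.049, adjusted p = 0.38). Without BDS 7 it was -0.51 (adjusted p = 0.06), and the p-value stayed under 0.05 before adjustment in 3 of 12 fits that each left out 1 sample. Of 12 listed markers of monocytes and border macrophages, 5 were on the panel. Cd163 and Spn were above background in 0 of 12 samples, and Cd74, the invariant chain of MHC class II, was at 72.7 ± 26.0 and 62.9 ± 6.2 normalized counts. Their summed level without Ccr2 was 70.6 to 135 in controls and 74.5 to 97.2 in BDS.

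**Figure D2:**
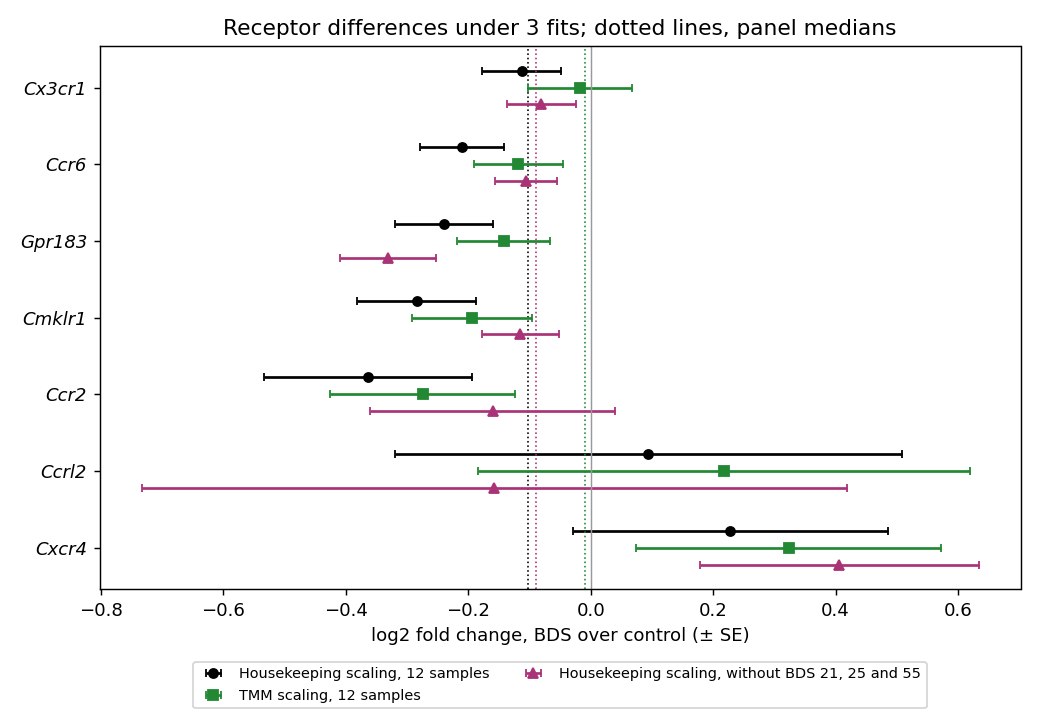
Log2 fold change of BDS over control (x axis, points with SE bars) for the 7 receptors tested, under housekeeping scaling, TMM scaling, and housekeeping scaling without BDS 21, BDS 25 and BDS 55; dotted lines are the medians of all 357 genes in the same colours. Ccr6 and Cmklr1 move toward the panel median without the 3 samples, from -0.21 to -0.11 and from -0.28 to -0.11, and Gpr183 moves away from it, from -0.24 to -0.33.

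Ccr6, Cmklr1 and Ccr2 were lowest in the same 3 BDS samples, and Gpr183 was not. Single BDS samples moved the adjusted p-values both ways (edgeR). Without BDS 7 they were 0.052 for Ccr6, 0.056 for Cmklr1 and 0.11 for Gpr183, and 24.6% of all genes were lower before adjustment. Without BDS 25 they were 0.53 for all 3, with 6.44% of all genes lower, and without BDS 55 0.43 for all 3, with 6.16% lower. Ccr6 was at 14617 to 15014 normalized counts in BDS 21, BDS 25 and BDS 55, the samples with few housekeeping counts, and at 16391 to 18320 in BDS 7, BDS 35 and BDS 43. Cmklr1 was likewise lower in the first 3, at 2239 to 2755 against 3040 to 3394, and so was Ccr2, at 225 to 259 against 289.5 to 431. Gpr183 had the opposite order, at 8799 to 10060 in the first 3 and 7795 to 8503 in the other 3. How many of all tested genes lay apart between these 3 and 3 samples was not counted. These ranges are therefore a description, and no trait particular to these receptors can be read from them. The housekeeping counts that mark the first 3 samples also enter the scaling of every gene. Against all controls, the first 3 samples averaged -0.32 for Ccr6, -0.48 for Cmklr1, -0.59 for Ccr2 and -0.15 for Gpr183 (difference of mean log2(normalized count + 1)), and the other 3 averaged -0.11, -0.12, -0.16 and -0.33. Without the first 3 samples, edgeR gave -0.11 for Ccr6 (unadjusted p = 0.0639), -0.11 for Cmklr1 (unadjusted p = 0.101), -0.16 for Ccr2 (unadjusted p = 0.441) and -0.33 for Gpr183 (unadjusted p = 0.00167, adjusted p = 0.60). Of all genes, 5.6% were then lower before adjustment. Among the BDS samples, the low housekeeping counts and the raised ratio of Rpl19 to Polr2a went with lower Ccr6, Cmklr1 and Ccr2 values. Control 5, with a housekeeping count of 956 beside 933 in BDS 55 and a ratio of 0.23, was at 18251, 3519 and 363. The part of the housekeeping counts and of the ratio in the receptor values was not tested.

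**Figure D3:**
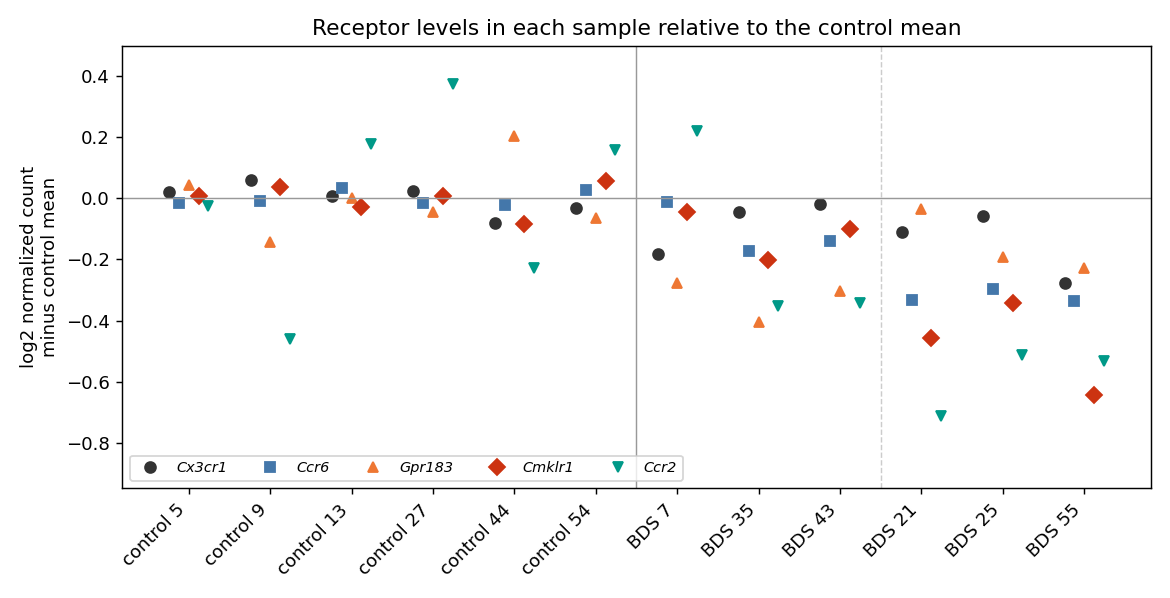
Log2 normalized count of 5 receptors in each sample minus the mean of the 6 controls (y axis), with controls left of the solid line and BDS 21, BDS 25 and BDS 55 right of the dashed line. Cmklr1, Ccr6 and Ccr2 are lowest in BDS 21, BDS 25 and BDS 55, and Gpr183 is lowest in BDS 35.

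Counts relative to Cx3cr1 in the same sample depend on no scaling; this ratio was chosen after the data had been seen. For Cmklr1 the ratio was 0.241 ± 0.008 in controls and 0.214 ± 0.030 in BDS (SD, n = 6), with 5 BDS samples below the lowest control and BDS 7, at 0.265, above the highest. For Ccr6 it was 1.27 ± 0.05 and 1.19 ± 0.13, with 4 BDS samples below and BDS 7, at 1.43, above every control. The ratio also moves with Cx3cr1, which in BDS 7 was at 12797 normalized counts, below the lowest control at 13721. The normalized counts of Ccr6 and Cmklr1 in BDS 7 were within their control ranges. For Gpr183 it was 0.714 ± 0.083 and 0.655 ± 0.078, with 2 BDS samples below every control, BDS 35 at 0.554 and BDS 43 at 0.584. For Ccr2 it was 0.0259 ± 0.0052 and 0.0219 ± 0.0060, and 4 BDS samples lay within the control range. None of the 4 ratios separated the groups. Of the 277 genes other than Cx3cr1 above background in every sample, these 4 among them, 0% had a ratio that did.

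**Figure D4:**
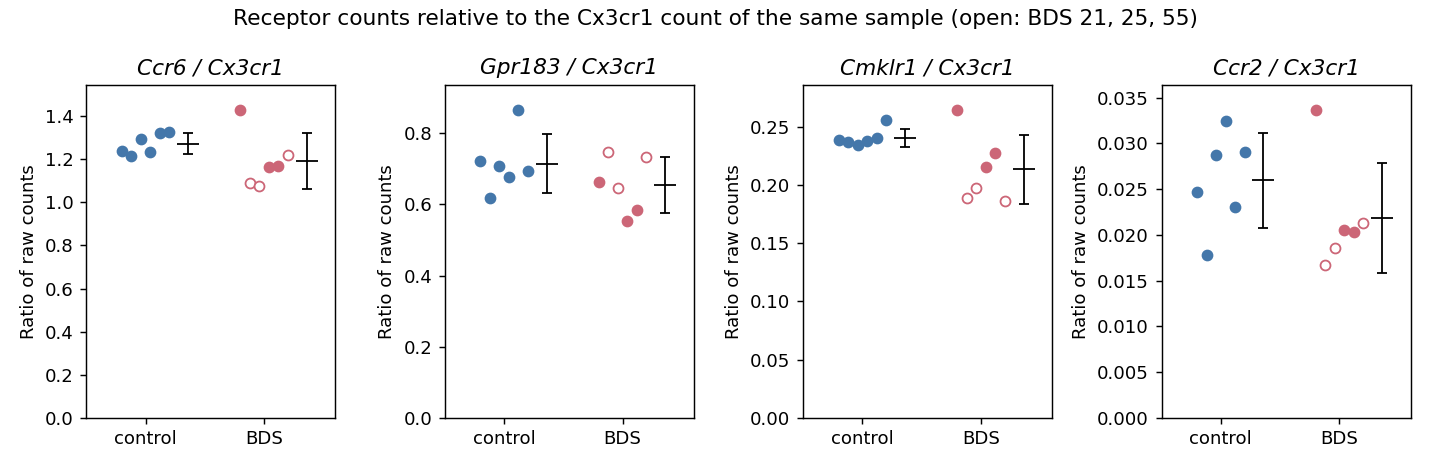
Raw count of Ccr6, Gpr183, Cmklr1 and Ccr2 divided by the Cx3cr1 count of the same sample (y axis, from 0); points are samples, bars mean ± SD, open points BDS 21, BDS 25 and BDS 55. BDS 7 is the highest BDS point for Ccr6, Cmklr1 and Ccr2, at 1.43, 0.265 and 0.0337.

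Ccrl2, the receptor that binds chemerin without signalling, was near the detection limit in all but 1 sample. Controls lay at 16.0, 19.4 and 91.9 normalized counts (lowest, median, highest) and BDS samples at 20.9, 34.9 and 41.1. The highest control was control 44, with a raw count of 96 against 14 to 33 in the other 5, and it was the only control above every BDS sample. The other 5 controls lay at or below 22.4, under 5 of the 6 BDS samples. The log2 fold change was 0.09 ± 0.41 (SE, 95% interval -0.79 to 0.98; edgeR, adjusted p = 0.91). Without control 44 it was 0.78 ± 0.21 (edgeR, unadjusted p = 0.00166, adjusted p = 0.29), where 7 of 357 genes were higher before adjustment. Control 44 stands out by its Ccrl2 count itself, so this p-value is a description. With the negative-control mean also subtracted, the log2 fold change was 1.06 (limma, adjusted p = 0.32), where 4 genes were higher. Without BDS 21, BDS 25 and BDS 55 the Ccrl2 value was -0.16. Raw counts were 23 to 36 in BDS, over thresholds of 18.2 to 21.8. Divided by the scaling factor, thresholds were 16.0 to 30.8 in BDS and 12.7 to 19.2 in controls.

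The chemokines Ccl3, Ccl12 and Ccl4 were also highest in control 44. Ccl3 and Ccl12, the ligands with the highest mean counts, were at 9723 and 3208 normalized counts in control 44, against 689 to 1727 and 439 to 1701 in the other controls. Ccl4, chosen after its values were seen, was at 4102 against 316 to 981. Log2 fold changes were -0.42 for Ccl3, -0.36 for Ccl12 and -0.69 for Ccl4 (edgeR, adjusted p = 0.71, 0.68 and 0.54), and without control 44 they were 0.62, 0.11 and 0.30. In BDS 7, the lowest BDS sample for Ccrl2, these 3 were also at their lowest in BDS, at 643, 341 and 338. Their part in the Ccrl2 values was not tested.

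**Figure D5:**
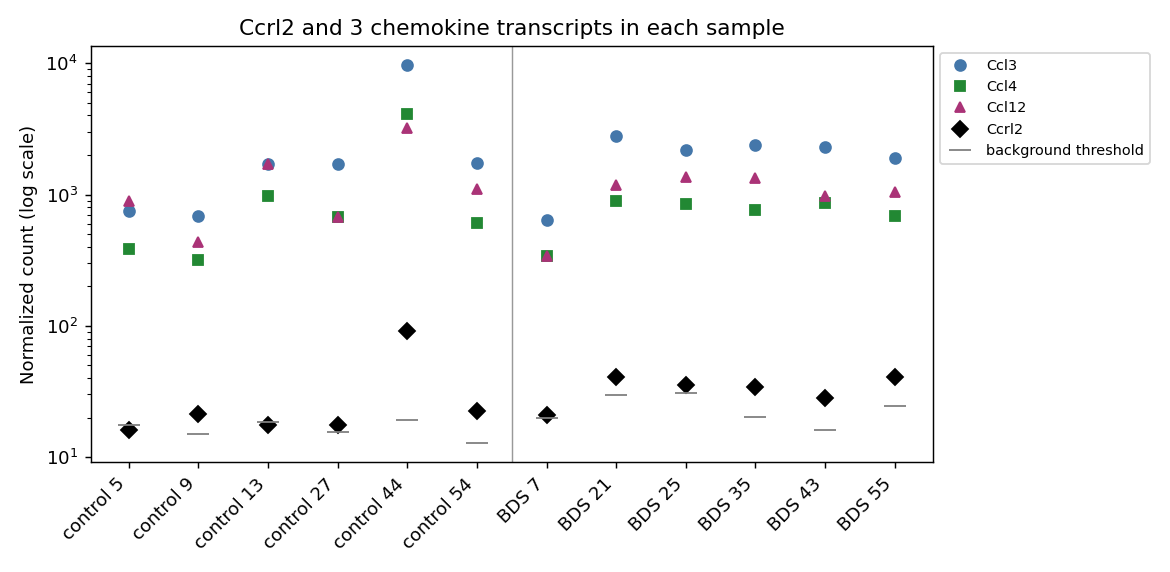
Normalized counts on a log axis of Ccrl2, Ccl3, Ccl4 and Ccl12 in the 12 samples, with the background threshold of each sample as a grey dash. Control 44 is the highest sample for all 4 genes, and BDS 7 is the lowest BDS sample for each.

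Cxcr4, the receptor of Cxcl12, had controls at 20.3, 24.0 and 36.6 normalized counts and BDS samples at 12.9, 31.5 and 43.2. It was above background in all 6 controls and in 4 BDS samples, with BDS 21 and BDS 55 below it. The log2 fold change was 0.23 ± 0.26 (SE, 95% interval -0.32 to 0.78; edgeR, adjusted p = 0.68), it was 0.12 to 0.38 with 1 sample left out (lowest without BDS 7, highest without BDS 55), and it was -0.41 with background subtracted, so no direction can be given at this depth. Cxcr3, the receptor of interferon-induced chemokines, was above background in 0 of 12 samples, with raw counts of 10 to 18 in controls and 4 to 19 in BDS under thresholds of 15.3 to 21.8. It was not detectable at this depth.

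Other genes of the pathway came from lists of names. Of 18 further receptors on the panel, 10 were tested, 8 with log2 fold changes below 0, and 0 were at an unadjusted p under 0.05 (median -0.15). Among the most abundant, Ptafr, the receptor of platelet-activating factor, was at 4725 ± 243 and 4223 ± 406 normalized counts (SD, n = 6). Of 27 ligands, 12 were tested, 9 below 0, with 0 at an unadjusted p under 0.05 (median -0.16). Of the ligands that pair with these receptors, Cx3cl1 and Ccl20 were above background in 2 of 12 samples each and were not tested. Of those for Ccr2, Ccl2 and Ccl12 were above it in 12 of 12, Ccl7 in 11 and Ccl8 in 0. Cxcl12, for Cxcr4, was above it in 11. For Cxcr3, Cxcl10 was above it in 10, Cxcl11 in 3 and Cxcl9 in 1. All but Ccl12 were named here after their values were seen. Of 11 genes of receptor signalling and adhesion, all tested, 10 lay below 0 (median -0.13) and 1 was lower at an unadjusted p under 0.05. Over all tested genes 66.1% lay below 0, the median was -0.10, and 11.5% were lower and 0.84% higher before adjustment. Itgb1, an integrin chain, was at -0.20 ± 0.07 (SE; edgeR, unadjusted p = 0.0138, adjusted p = 0.25), and Itgam, the most abundant, at 39933 ± 2905 and 36367 ± 5675 normalized counts.

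Likeness between genes was measured as the root-mean-square difference of log2 values over the 12 samples, each gene centred on its own mean. Nearest to Cmklr1 were Tgfbr2, a receptor of TGF-beta, at 0.078 and Cd82, a tetraspanin, at 0.080, where the median over all tested genes was 0.32. Nearest to Ccr6 were Itgb1 at 0.056 and Cd164, a sialomucin, at 0.066 (median 0.27). For Gpr183 they were Csf1, a growth factor of microglia, at 0.080 and Nfatc2, a transcription factor, at 0.099 (median 0.28). For Cx3cr1 they were Il10rb and Il16, a receptor chain and a cytokine, at 0.060 and 0.072, and for Ccr2 Tirap and Irak1, both of Toll-like receptor signalling, at 0.17 and 0.17 (medians 0.28 and 0.39). All genes share the scaling factor of each sample, which enters these distances.

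The remaining marker lists described what else the sort may have held. For T cells 7 of 16 panel markers were tested, with summed normalized counts of 5269 to 6359 in controls and 4831 to 5886 in BDS. Most of this was Il7r, a cytokine receptor chain, at 5102 ± 424 and 4682 ± 370, followed by Cd27, a costimulatory receptor. For B cells 5 of 11 were tested (sums of 3966 to 4474 and 3868 to 5214), with Blnk, an adaptor protein, and Pou2f2, a transcription factor, highest. For NK cells 4 of 6 were tested (232 to 490 and 227 to 308), with Prf1, the pore-forming perforin, and Klrd1, a lectin-like receptor, highest. For neutrophils 2 of 5 were tested (3114 to 3709 and 3074 to 3672), nearly all of it Csf3r, a growth factor receptor. S100a8, a neutrophil protein, was above background in 6 of 12 samples. For endothelium 2 of 4 were tested, Pecam1 and Cdh5, both adhesion proteins (962 to 1359 and 944 to 1302). For astrocytes, neurons and oligodendrocytes the 2 on the panel were tested, the myelin gene Mbp and the neuronal adhesion gene Icam5 (123 to 243 and 114 to 184). Above background in 0 of 12 samples were Cd247, Cd28, Gata3 and Zap70 of the T cell list, Cd22 and Cr2 of B cells, Gzmb of NK cells, Camp and Cxcr2 of neutrophils, Sele of endothelium, and Fcer1a and Kit, the 2 mast cell markers. At an unadjusted p under 0.05, Lck and Cdh5 were lower and Tnfrsf13b higher in BDS (edgeR, adjusted p = 0.25, 0.38 and 0.29), which were looked up after their values were seen. The part of other cells in the receptor values was not tested.

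Folds of BDS over control in the authors' deposited table are 0.86 for Gpr183, 0.87 for Ccr6, 0.83 for Cmklr1, 0.78 for Ccr2 and 0.94 for Cx3cr1. The p-values in the authors' deposited table are 0.0053 for Gpr183, 0.0058 for Ccr6, 0.0131 for Cmklr1, 0.0865 for Ccr2 and 0.0902 for Cx3cr1, with no adjustment named in the file. Of 364 genes that the authors' deposited table lists as present, 39 have such a p-value under 0.05, 10.7%. So do 3 of the 8 receptors, of which Cxcr3 is not among the 364. The authors' deposited table puts Cxcr3 above background in 17% of samples, against 0 of 12 by the threshold used here.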

How the data were processed

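The authors deposited raw barcode counts, 1 whole number for each probe and sample: 545 endogenous genes, 14 housekeeping genes, 8 negative and 6 positive controls. Per the labels' protocols, 2 ng of RNA were turned into cDNA and amplified in 5 rounds of PCR. The authors' second table holds values scaled by positive controls and housekeeping genes and rounded, treated as scores, with group means, a fold (linear ratio) and a p-value per gene, per the file headers. Its other column, the percent of samples above background, is the authors' too. The deposited scaling matched 5 of the 6 housekeeping genes named in the design text (Alas1, Gapdh, Oaz1, Polr1b, Tbp; spread over samples 0.0016%, against 1.65% with Sdha added).

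Here each sample was scaled by all 6 named genes (geometric mean), and genes above the negative-control mean plus 2 SD in at least 40% of samples (5 of 12) were tested, 357 in all. Groups were compared with edgeR 4.0.16 (R 4.3.3, quasi-likelihood test, housekeeping size factors, no covariates, Benjamini-Hochberg adjustment, threshold 0.05), with limma 3.58.1 and DESeq2 1.42.0 as alternatives. The test was checked on simulated counts. Single measures were compared by two-sided exact permutation tests over 924 groupings, whose smallest p is 0.00216. Of 545 accessions, 535 were found in the GRCm38.p6 RefSeq table. The rule named all listed receptors found, per list the genes at an unadjusted p under 0.05 and the 2 most abundant, and the 2 nearest genes of each receptor above background in every sample, and per marker list the 2 most abundant and those above background in no sample. Some genes that this rule selects are not reported here. Members and lists were chosen with earlier results of these data known. Alternatives covered scaling, test, filter, background subtraction, the threshold, a housekeeping covariate and samples left out.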

Additional observations from a re-analysis of the deposited data

Results flagged for a closer look

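Groups of 6 values, within controls or within BDS, covered receptors, ratios to Cx3cr1 and housekeeping counts. They also covered Ptafr, Ccl3, Ccl12, Ccl4, Itgb1 and Itgam. Of 38 groups, 7 had 1 sample far from the other 5, which chance gives in about 1 of 20 groups. The groups share samples and the genes are not independent.

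Control 44 was far above the other controls for Ccrl2 (91.9 normalized counts against 16.0 to 22.4), Ccl3 (9723 against 689 to 1727) and Ccl4 (4102 against 316 to 981). BDS 7 was far above the other BDS samples for Ccr2 (431 normalized counts against 225 to 291) and for the ratio of Ccr2 to Cx3cr1 (0.0337 against 0.0167 to 0.0213). It was far below them for Ccl12 (341 against 982 to 1364). Control 54 stood above the other controls in the ratio of Cmklr1 to Cx3cr1 (0.257 against 0.235 to 0.241).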

How the results depend on the processing

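Of the 7 receptors tested, 2 passed the adjusted threshold with voom and sample quality weights, Ccr6 (adjusted p = 0.041) and Cmklr1 (adjusted p = 0.0458), and 0 in every other fit run, among them DESeq2 and limma without weights. Voom also called 16 genes of the whole panel and 1 other pathway gene (Itgb1). The count of receptors lower at an unadjusted p under 0.05 went from 4 to 0 with TMM and with DESeq2's size factors, to 1 with total-count scaling, to 2 with the housekeeping factor as covariate, and to 1 without BDS 21, BDS 25 and BDS 55, under either housekeeping or TMM scaling. With 1 sample left out in turn this receptor count was 3 to 4. Of the 357 panel genes, 41 were lower in the main fit. There were 14 with TMM, 14 with DESeq2's size factors, 13 with total-count scaling and 22 with the covariate. Without BDS 21, BDS 25 and BDS 55 there were 20, or 8 with TMM, and with 1 sample left out 22 to 88. The count of receptors higher in BDS went from 0 to 1 (Ccrl2) without control 44, also with background subtracted. It went to 1 (Cxcr4) with TMM and without BDS 21, BDS 25 and BDS 55, and was 0 to 1 with 1 sample left out. Of the 357 panel genes, 3 were higher in the main fit, 7 without control 44 and 4 there with background subtracted. With TMM and without those 3 BDS samples, 1 was higher. Panel genes past the adjusted threshold were 0 to 4 with 1 sample left out, the 4 without BDS 7. The housekeeping difference of -247 was -327 to -176 with 1 sample left out.

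Cx3cr1, Ccr6, Gpr183, Cmklr1 and Ccr2 kept their sign in all 18 alternatives and all 12 fits with 1 sample left out. The alternative at an adjusted p under 0.1 changed only the threshold, so its signs could not differ. Changing the filter left the Cx3cr1 value at -0.11, as in the main fit. Cxcr4 turned to -0.41 with background subtracted and to -0.43 also without control 44. Ccrl2 turned to -0.14 with the covariate, to -0.16 without BDS 21, BDS 25 and BDS 55, to -0.056 there with TMM, and with 1 sample left out it was -0.03 to 0.78, below 0 without control 5, control 13 or control 27 (-0.028, -0.024 and -0.032). Ccl3 turned to 0.11 in limma with a pseudocount of 1 or 10 or with background subtracted, to 0.13 on the deposited scores, to 0.33 with voom, to 0.62 without control 44 and to 0.61 there with background subtracted. Ccl12 turned to 0.0073 with voom, to 0.11 without control 44 and to 0.13 there with background subtracted. Ccl4 turned to 0.031 with voom, to 0.30 without control 44 and to 0.35 there with background subtracted. With TMM and without BDS 21, BDS 25 and BDS 55, Ptafr turned to 0.0098 and Itgam to 0.069. With 1 sample left out, Ccl3 was -0.62 to 0.62, Ccl12 -0.54 to 0.11 and Ccl4 -0.89 to 0.30, each above 0 only without control 44. Before adjustment, lower and higher panel genes were 85 and 11 with voom, 22 and 0 with the covariate, 20 and 0 without those 3 samples, 88 and 8 without BDS 7, 23 and 3 without BDS 25, and 22 and 4 without BDS 55. The causes were not tested. The fits with 2 changes together and the ratios to Cx3cr1 were added after seeing the data. No paired analysis was possible because the groups share no replicate number. Depth limits Cxcr3, Cxcr4 and Ccrl2, whose counts lie near the negative controls.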
